A study of Rattus norvegicus with 12 samples.

Results

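The hind leg muscle of newborn rats whose mothers ate a low protein diet and drank taurine was compared with that of newborns of control mothers. The comparison uses 8 of the 12 arrays of the study, 4 per group, and all 18957 detected probe sets. All animals were Wistar rats. Control dams ate the control diet. The dams of the taurine group ate a low protein diet from day 1 of gestation and had 2% w/v taurine in their drinking water. The remaining 4 arrays are of a low protein group without taurine, which entered the fit for its spread and is set beside the results where it bears on them. Every array held RNA pooled from 3 male newborns of 1 dam, so the dam was the replicate. An array is named below by its group and number, as taurine 1 or control 1. With 4 arrays in a group, the number of arrays limits the precision.

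Taurine is a sulphur-containing amino acid derivative that muscle takes up from the blood through the transporter Slc6a6 and holds at a high concentration. It takes part in the control of cell volume and of calcium release in the muscle fibre. The newborn rat leg still forms its fast and slow fibres, and its neuromuscular junctions mature in the first weeks of life. A maternal diet low in protein restricts the growth of the fetus and of its muscle.

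The muscle label was borne out by the markers of the muscle fibre, which include actin, creatine kinase and the fast troponins. Their mean log2 level lay between 12.38 and 12.69 on all 12 arrays. Control 3 and control 4 also carried liver transcripts. The mean of 14 measured hepatocyte markers of 25 was 10.54 in control 3 and 11.50 in control 4, against 6.76 and 6.97 in control 1 and control 2 and 6.76 to 7.40 in the taurine arrays. Erythroid markers moved with them, at 9.21 and 9.96 in control 3 and control 4 against 8.37 to 8.96 in control 1 and 2 and the taurine arrays. Results are therefore given over all arrays and, for most counts and genes, also from a second fit that leaves out control 3 and control 4, called the reduced fit below. In pooled tissue, fewer cells of a type and less RNA per cell cannot be told apart.

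With a limma adjusted p of 0.05 as the threshold, 2616 of 18957 probe sets (13.8%) were called, of which 1934 (10.2%) were higher and 682 (3.60%) lower in the taurine group. The reduced fit called 907 (4.78%), 393 higher (2.07%) and 514 lower (2.71%). Both fits called 292 probe sets higher (1.54%) and 331 lower (1.75%). Of these, cyclic loess, a normalization that removes trends with the level, left 144 higher (0.760%) and 294 lower (1.55%). By itself the fit after cyclic loess called 333 higher (1.76%) and 804 lower (4.24%). The share of higher calls moved with the arrays and the scaling: 73.9% were higher over all arrays, 43.3% in the reduced fit, 46.1% after a further quantile normalization, 32.9% after centring each array on its median and 29.3% after cyclic loess. The median log2 fold change over all probe sets was 0.057, and 0.095 over the 11344 named genes with 1 probe set each. It depended on the level, from -0.064 in the lowest of 10 equal classes of the mean level to 0.139 in class 8. Higher calls did too, with 19 of 1895 probe sets in the lowest class and 355 of 1896 in class 8. The shares set beside gene lists below are not matched for level. Probe sets with a gene name and those without one split differently. Of 12049 with 1 gene name, 263 were higher and 72 lower in both fits. Of 6908 without a single name, 29 were higher and 259 lower. The named ones include 328 whose name came through the authors' deposited table of 895 genes, which also holds p-values. Over all arrays 1567 of the 12049 were called higher and 221 lower. A fit of only the 11721 probe sets with a platform symbol called 1419 higher and 123 lower. Names from the authors' table therefore went to called probe sets more often than platform symbols did, although these fits adjust p over different sets. The shares over named genes given below include such names.

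MicroRNAs bind messenger RNAs through a seed at bases 2 to 8 and lower their output. The array holds 10 detected probe sets that carry the name of a microRNA gene, of which 3 were higher, 4 lower and 3 did not pass, beside 10.2% of all probe sets called higher and 3.60% lower. Which form of the RNA these probe sets detect was not tested. Mir100 is the microRNA called higher in both fits, and Mir133a1, one of the genes of the muscle microRNA miR-133a, was called over all arrays only. The mature miR-100-5p lies at chr8:50798307-50798328 on the plus strand and miR-133a-3p at chr18:2157886-2157907 on the minus strand (GRCr8). Their mature sequences from RefSeq are shown to identify both, with the seed in capitals. The 4 seeds differ from one another.
rno-miR-100-5p: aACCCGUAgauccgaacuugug
rno-miR-100-3p: cAAGCUUGugucuauaggu
rno-miR-133a-3p: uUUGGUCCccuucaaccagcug
rno-miR-133a-5p: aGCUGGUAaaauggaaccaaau

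Mir100 stood at 6.82, 6.55, 6.49 and 6.96 in taurine 1 to 4 and at 6.14, 5.96, 6.16 and 6.13 in control 1 to 4. All taurine arrays lay above all controls, and the log2 fold change was 0.61 (SE 0.13, limma adjusted p = 0.0170), or 0.66 in the reduced fit (0.0477). Mir133a1 was at 7.05, 6.92, 6.47 and 6.94 with taurine and at 6.09, 6.47, 6.22 and 6.16 in control. As rounded here, its lowest taurine array and its highest control were both at 6.47, and before rounding the taurine array was the higher. Mir133a1 rose by 0.61 (limma adjusted p = 0.0164). It was at 0.57 in the reduced fit (0.0677). Mir320a was lower in both fits, at 7.28, 7.37, 7.39 and 7.18 against 7.65, 7.71, 7.73 and 7.66, and fell by 0.38 (SE 0.06, limma adjusted p = 0.00865). Mir122, the liver microRNA, stood at 6.25, 6.45, 6.79 and 7.48 in control 1 to 4 and between 6.04 and 6.25 with taurine. Mir505 at 0.31, Mir139 at -0.24, Mir195 at -0.26 and Mir297 at -0.44 passed over all arrays only. Mir122 did not pass (-0.57, limma adjusted p = 0.0678), and it was highest in control 3 and control 4, the arrays with the hepatocyte markers.

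Calls in both fits with no overlap between the 4 taurine and the 4 control arrays held 1.48% of all probe sets on the higher and 1.30% on the lower side. They included 231 genes with a name that were higher and 19 that were lower. The 14 largest of each direction were selected, and all but 1 fall are described here. Of these 28 genes 18 carry a platform symbol, and the others were named through the authors' deposited table. Since passing both fits and not overlapping chose them, those properties are no finding about them. Whatever the test, taurine lay entirely above control in 14.2% of all probe sets and entirely below it in 6.01%.

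Genes of the extracellular matrix and the cell surface were among the 14 largest rises. Cilp (probe set 10910926), a matrix protein of cartilage and tendon, was at 8.34, 8.16, 8.53 and 8.07 in taurine 1 to 4 and at 7.64, 7.54, 7.66 and 7.62 in control 1 to 4. The controls differed from one another by little and the lowest taurine array lay well above them. The group means were 8.28 ± 0.20 and 7.62 ± 0.05 (SD, n = 4), a log2 fold change of 0.66 (SE 0.08, limma adjusted p = 0.00781) that was 0.68 in the reduced fit. Kera, which encodes keratocan, a small proteoglycan that orders collagen fibrils, stood at 9.26, 9.28, 9.49 and 9.28 against 8.66, 8.90, 8.87 and 8.65 and rose by 0.55, or by 0.54 in the reduced fit. Frem2, a protein that anchors epithelia to the basement membrane, stood at 8.23, 8.34, 8.62 and 8.41 against 7.69, 7.86, 7.86 and 7.62 and rose by 0.64 (SE 0.10), or by 0.63 in the reduced fit. For Kera and Frem2 taurine 3 was the highest array. Lgi1, a secreted leucine-rich repeat protein known from neurons, had the largest rise of the 14 and also the widest controls. It was at 7.68, 7.68, 7.53 and 7.29 against 6.43, 7.15, 6.92 and 7.02, and rose by 0.67 (SE 0.14, limma adjusted p = 0.0174). The reduced fit gave 0.76 (0.0381). Lrrn1, a leucine-rich repeat membrane protein, rose by 0.58, Tenm3, a teneurin that guides the contacts of neurons, by 0.51, and Cpm, a membrane carboxypeptidase, by 0.59. The reduced fit gave 0.64 for Lrrn1, 0.51 for Tenm3 and 0.64 for Cpm.

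Genes that act within the cell made up the rest of the rises. Mid2, a ubiquitin ligase that binds microtubules, was at 8.22, 8.33, 8.09 and 8.09 in taurine 1 to 4 and at 7.65, 7.76, 7.39 and 7.40 in control 1 to 4. Control 3 and control 4 were its lowest arrays, so its fold change of 0.64 was 0.48 without them (limma adjusted p = 0.0102). A second Mid2 probe set was higher as well, by 0.43 (limma adjusted p = 0.0133). Popdc3, a cAMP-binding membrane protein of striated muscle, was at 9.77, 9.57, 9.59 and 9.60 against 9.14, 9.21, 9.19 and 8.89, and rose by 0.52 (SE 0.08, limma adjusted p = 0.00781). Pknox2, a homeodomain transcription factor, was at 8.33, 8.42, 8.36 and 8.49 against 7.83, 7.97, 7.88 and 7.70, and rose by 0.56. In Popdc3 and Pknox2 the gap between the groups was wider than the spread within either. Dok5, an adaptor of receptor tyrosine kinases, rose by 0.58, and the phospholipase gene Plcd4 by 0.56. The RNA-binding splicing regulator gene Khdrbs3 rose by 0.55, and Zfp185, a LIM domain protein of the actin cytoskeleton, by 0.62. Over the 14 rises the fold change was 0.51 to 0.67 over all arrays, 0.46 to 0.76 in the reduced fit and 0.40 to 0.63 after cyclic loess, and all 14 also passed after cyclic loess.

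Of the 14 largest falls 13 are described. Idi2, an isopentenyl diphosphate isomerase of isoprenoid synthesis, was at 5.98, 5.88, 5.96 and 5.95 against 6.55, 6.42, 6.42 and 6.21 and fell by 0.46, or by 0.54 in the reduced fit. Krt19, a keratin of simple epithelia, was at 6.03, 6.02, 6.17 and 6.22 against 6.55, 6.64, 6.39 and 6.52, and fell by 0.42, or by 0.48 in the reduced fit.

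Core histone genes made up 3 of the 14 falls. Histones package DNA, and most of their genes are switched on with DNA replication. Hist1h2af was at 10.40, 10.12, 10.38 and 10.45 with taurine and at 10.90, 10.98, 10.78 and 10.66 in control, and fell by 0.49 (SE 0.09, limma adjusted p = 0.00942). Hist3h2ba was at 8.33, 8.25, 8.15 and 8.16 against 8.66, 8.77, 8.58 and 8.65, and fell by 0.44 (SE 0.06). H2bc1 fell by 0.37. The reduced fit gave -0.60 for Hist1h2af, -0.49 for Hist3h2ba and -0.48 for H2bc1. In the list of 22 measured histone genes these 3 fell and 0 rose, with a median of -0.11, and the same 3 fell in the reduced fit, when the median was -0.12. After cyclic loess 5 fell. Over all named genes the share called lower was 1.72% with all arrays, 0.732% in the reduced fit, 0.582% in both and 1.64% after cyclic loess. The list of 38 cell cycle and DNA replication genes, in contrast, had 0 rises and 0 falls by limma over all arrays. It also had 0 in the reduced fit and after cyclic loess. Over all arrays 4 of the 38 had an unadjusted p under 0.05. The adjusted p is never the smaller, and 13.8% of all probe sets passed 0.05 after adjustment. At least that share therefore had such an unadjusted p, so 4 of 38 is no excess. Histone genes are near-identical copies of one another, so a probe set may read several of them.

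The remaining falls were of 0.27 to 0.33. They held the intestinal homeobox gene Cdx1 at -0.31, the embryonic growth factor gene Fgf4 at -0.30, the segmentation clock repressor gene Hes7 at -0.30, the ETS factor gene Elf4 at -0.32, the platelet receptor gene Treml1 at -0.33, Armc2 at -0.31, Fancd2osl1 at -0.32 and Lrrc10b at -0.27. Fgf4 stood at 8.05, 8.12, 8.03 and 8.03 with taurine and at 8.40, 8.49, 8.31 and 8.23 in control. Hes7 stood at 7.36, 7.51, 7.45 and 7.37 against 7.76, 7.76, 7.73 and 7.64. A second probe set of Armc2 was not lower (0.09, limma adjusted p = 0.312). Lrrc10b did not pass after cyclic loess (-0.22, limma adjusted p = 0.0948), while the other 12 falls described did.

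**Figure D1:**
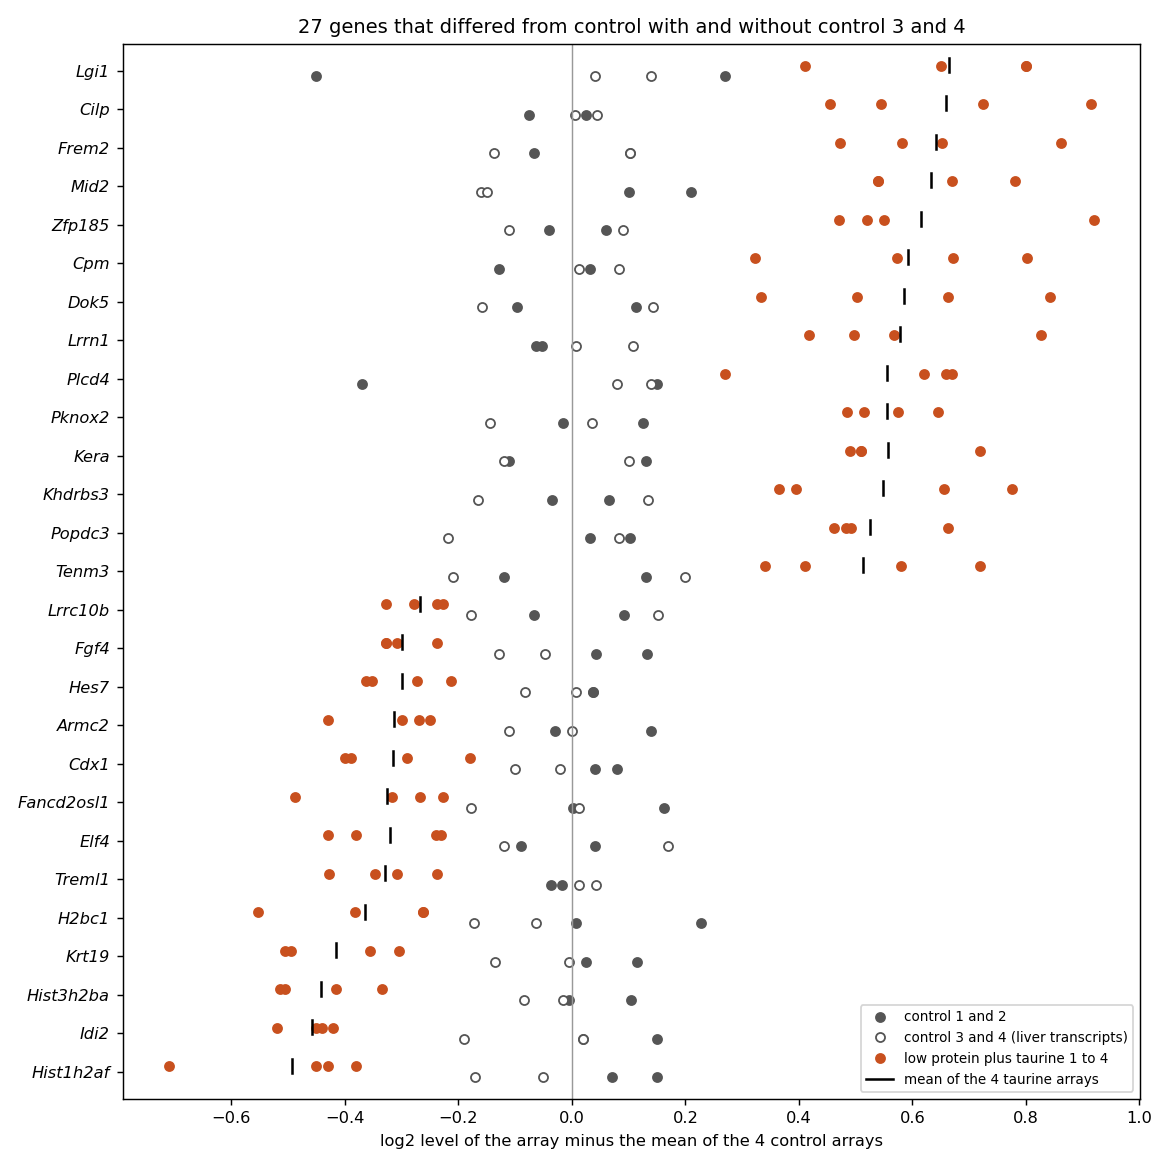
The log2 level of each of 27 of the 28 genes on each array (x axis) minus the mean of the 4 controls, with 1 row per gene. Orange points are taurine 1 to 4, filled grey points control 1 and 2, open points control 3 and 4, and the black bar is the mean of the taurine arrays. In every row the taurine points lie on one side of all control points, which is how the genes were chosen, and Lgi1 and Plcd4 show a control 1 point far to the left.

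A probe set of Cbx3, a heterochromatin protein, was lower as well and was chosen after its values were seen. Probe set 10756257 stood at 6.55, 7.0, 7.13 and 7.02 with taurine and at 8.68, 8.17, 7.98 and 7.80 in control, a fold change of -1.24 (limma adjusted p = 0.00781), or -1.50 in the reduced fit. The other Cbx3 probe sets, at fold changes of 0.08 and 0.10 (limma adjusted p = 0.560 and 0.400), were not lower. The Cbx3 probe sets therefore give no single direction for the gene.

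The circadian clock list had a median of 0.37 over 15 measured genes of 19, and of 0.22 in the reduced fit. The clock is a loop in which Clock or Npas2 with Bmal1 switches on the Per, Cry and Nr1d genes, whose products then switch the loop off. Of the 15 genes 6 rose and 0 fell, against 13.3% of all named genes called higher. In the reduced fit, 4 rose, against 2.84%, and after cyclic loess 4 rose, against 2.35%. Nr1d2, a repressor of the loop, was at 8.74, 8.84, 8.68 and 8.67 with taurine and at 8.29, 8.22, 8.36 and 8.30 in control, and rose by 0.44 (SE 0.06, limma adjusted p = 0.00781). Its relative Nr1d1 was at 8.07, 8.41, 8.14 and 7.98 against 7.68, 7.77, 7.74 and 7.65, and rose by 0.44. The activator gene Npas2 was at 7.57, 7.67, 7.83 and 7.73 against 7.30, 7.29, 7.37 and 7.30, and rose by 0.38. For these 3 genes every taurine array lay above every control.

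Per3, a period gene of the loop, was at 7.85, 8.06, 7.88 and 7.96 with taurine and at 7.17, 7.38, 7.67 and 7.63 in control, and rose by 0.48, or by 0.66 in the reduced fit. Nr1d2, Npas2, Nr1d1 and Per3 are the 4 clock genes that passed in both fits. Clock, at 0.31, and Bhlhe40, at 0.42, rose over all arrays and did not pass in the reduced fit (limma adjusted p = 0.112 and 0.0795). Per1 was at 7.98, 9.67, 7.79 and 8.50 against 7.23, 7.56, 7.76 and 7.55. Taurine 2 was its highest array, and its fold change of 0.96 (SE 0.32) did not pass (limma adjusted p = 0.0599). Bmal1 at 0.20, Cry1 at 0.16, Dbp at 0.12 and Per2 at 0.39 did not pass either. Without taurine 1 and taurine 2, 3 of the 15 measured clock genes were called higher, beside 847 of all 18957 probe sets. The list median was then 0.17. The hour at which the newborns were dissected is not known from the labels.

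The promoters of the paralogues Nr1d1 and Nr1d2 are shown because these genes rose in both fits and Clock and Bmal1 are known to act on such genes through an E-box, CACGTG. Each window is 300 bases of RefSeq sequence (GRCr8), from 250 before to 50 after a start site. For Nr1d1 the window of the second start site is shown, chosen as the only window searched that held a match. This window lies at chr10:84229405-84229704 on the minus strand, and that of Nr1d2 at chr15:9954784-9955083 on the plus strand. Capitals mark the motifs found.
Nr1d1: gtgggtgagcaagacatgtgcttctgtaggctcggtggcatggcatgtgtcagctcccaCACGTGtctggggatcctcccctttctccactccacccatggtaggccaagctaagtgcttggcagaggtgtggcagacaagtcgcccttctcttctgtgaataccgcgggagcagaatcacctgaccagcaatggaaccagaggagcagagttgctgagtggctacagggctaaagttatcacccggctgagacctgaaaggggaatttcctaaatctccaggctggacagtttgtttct
Nr1d2: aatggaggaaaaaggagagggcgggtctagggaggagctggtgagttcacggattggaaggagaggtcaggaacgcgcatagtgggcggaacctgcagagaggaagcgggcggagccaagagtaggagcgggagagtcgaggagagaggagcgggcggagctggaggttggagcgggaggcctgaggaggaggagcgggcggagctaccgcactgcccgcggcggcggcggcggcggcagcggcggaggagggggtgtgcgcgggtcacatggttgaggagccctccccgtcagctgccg

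The windows of the 4 clock genes called in both fits, 5 windows with both start sites of Nr1d1, were searched on both strands for CACGTG, TTATGTAA, TTACGTAA and TAGGTCA. The Nr1d1 window shown held CACGTG once, from position -191, and the other 4 windows held no match. Of 33469 rat promoter windows of this length 6.42% held CACGTG, 0.893% TTATGTAA, 0.12% TTACGTAA and 2.63% TAGGTCA. A match describes the sequence and does not show that a factor bound there.

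Ion channels and pumps set the resting potential of the fibre and carry its action potential. Of 19 measured genes of 28 in this list 8 rose and 0 fell, against 13.3% of named genes called higher, with a median of 0.26. In both fits 4 rose, against 2.21%. Clcn1, the chloride channel that stabilises the fibre membrane, was at 8.14, 8.14, 8.32 and 8.25 with taurine and at 7.89, 7.88, 7.91 and 7.79 in control, and rose by 0.34 (SE 0.06, limma adjusted p = 0.00814). Kcnj2, an inward rectifier potassium channel of the resting potential, was at 7.81, 7.91, 7.81 and 7.77 against 7.39, 7.26, 7.46 and 7.57, and rose by 0.41, or by 0.50 in the reduced fit. For Clcn1 and Kcnj2 the groups did not overlap, and both also passed after cyclic loess. Abcc9, a subunit of ATP-sensitive potassium channels, rose by 0.21 in the fit of all arrays and by 0.25 in the reduced fit, and did not pass after cyclic loess (limma adjusted p = 0.370). The sodium pump subunit gene Atp1b2 was at 8.85, 8.97, 8.47 and 8.47 against 8.28, 8.32, 7.94 and 7.90 and rose by 0.58. It was at 0.39 in the reduced fit (limma adjusted p = 0.115).

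At the neuromuscular junction, agrin from the nerve acts on Lrp4 and Musk, which gather the acetylcholine receptor in the fibre membrane. In that list 8 of 18 measured genes rose and 0 fell, against 13.3% of named genes called higher, with a median of 0.22. In the reduced fit 2 rose, against 2.84%. Lrp4, the agrin receptor, was at 8.73, 8.88, 8.79 and 8.86 with taurine and at 8.43, 8.52, 8.45 and 8.30 in control, and rose by 0.39 (SE 0.07, limma adjusted p = 0.00865). It passed in both fits and after cyclic loess. Among the receptor subunits Chrnd rose by 0.32 and passed in both fits but not after cyclic loess (limma adjusted p = 0.0710). Chrnb1 rose by 0.48, Chrna1 by 0.38 and Chrne by 0.29 over all arrays. Chrnb1, at 0.38 (limma adjusted p = 0.0608), Chrna1, at 0.24 (0.125), and Chrne, at 0.21 (0.247), did not pass in the reduced fit. Rapsn, which anchors the receptor, rose by 0.32, and the acetylcholinesterase gene Ache by 0.23. They were at 0.22 (limma adjusted p = 0.0909) and 0.25 (0.130) in the reduced fit. The list medians of taurine 1 to 4 relative to control 1 and control 2 were 0.16, 0.12, 0.20 and 0.17, so the 4 arrays were alike in this list.

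The contractile apparatus and the proteins that couple the membrane to calcium release formed a list of which 11 of 28 measured genes rose and 0 fell, against 13.3% of named genes called higher, with a median of 0.27. The reduced fit had 2 rises, against 2.84%, and a median of 0.15. Jph1, which ties the transverse tubule to the calcium store, was at 9.30, 9.29, 9.22 and 9.38 with taurine and at 8.89, 8.97, 8.97 and 8.78 in control, and rose by 0.39 (SE 0.06, limma adjusted p = 0.00781). Jph1 and Clcn1 are the 2 that passed in both fits, and both passed after cyclic loess. The calcium release channel gene Ryr1 rose by 0.23, the calcium pump gene Atp2a2 by 0.19 and the myosin chaperone gene Unc45b by 0.31, and in the reduced fit their limma adjusted p was 0.247, 0.0886 and 0.134. Of 14 fast fibre genes 2 rose and of 13 slow fibre genes 2 rose, against 13.3% of named genes. The fast myosin gene Myh2 was at 8.32, 8.27, 7.68 and 7.84 against 7.28, 7.52, 7.49 and 7.34. It was highest in taurine 1 and taurine 2, rose by 0.62 and did not pass in the reduced fit (0.63, limma adjusted p = 0.101) or after cyclic loess (0.54, 0.0750). The embryonic myosin gene Myh3, at -0.02, did not pass.

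Among developmental myosins and myogenic regulators 5 of 15 measured genes rose and 0 fell over all arrays, against 13.3% of named genes called higher, and 0 rose in the reduced fit or after cyclic loess. Myf6, a myogenic factor of maturing fibres, was at 10.16, 10.18, 10.40 and 10.48 against 10.02, 9.89, 10.01 and 9.85 and rose by 0.36, and was at 0.35 in the reduced fit (limma adjusted p = 0.0643). Eya1 rose by 0.42, Igfbp5 by 0.32, Myf5 by 0.28 and Mef2a by 0.21. Myog was at 0.12 (limma adjusted p = 0.350) and Myod1 at -0.12 (0.202). Myod1 was called lower after cyclic loess (-0.25, limma adjusted p = 0.0309).

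**Figure D2:**
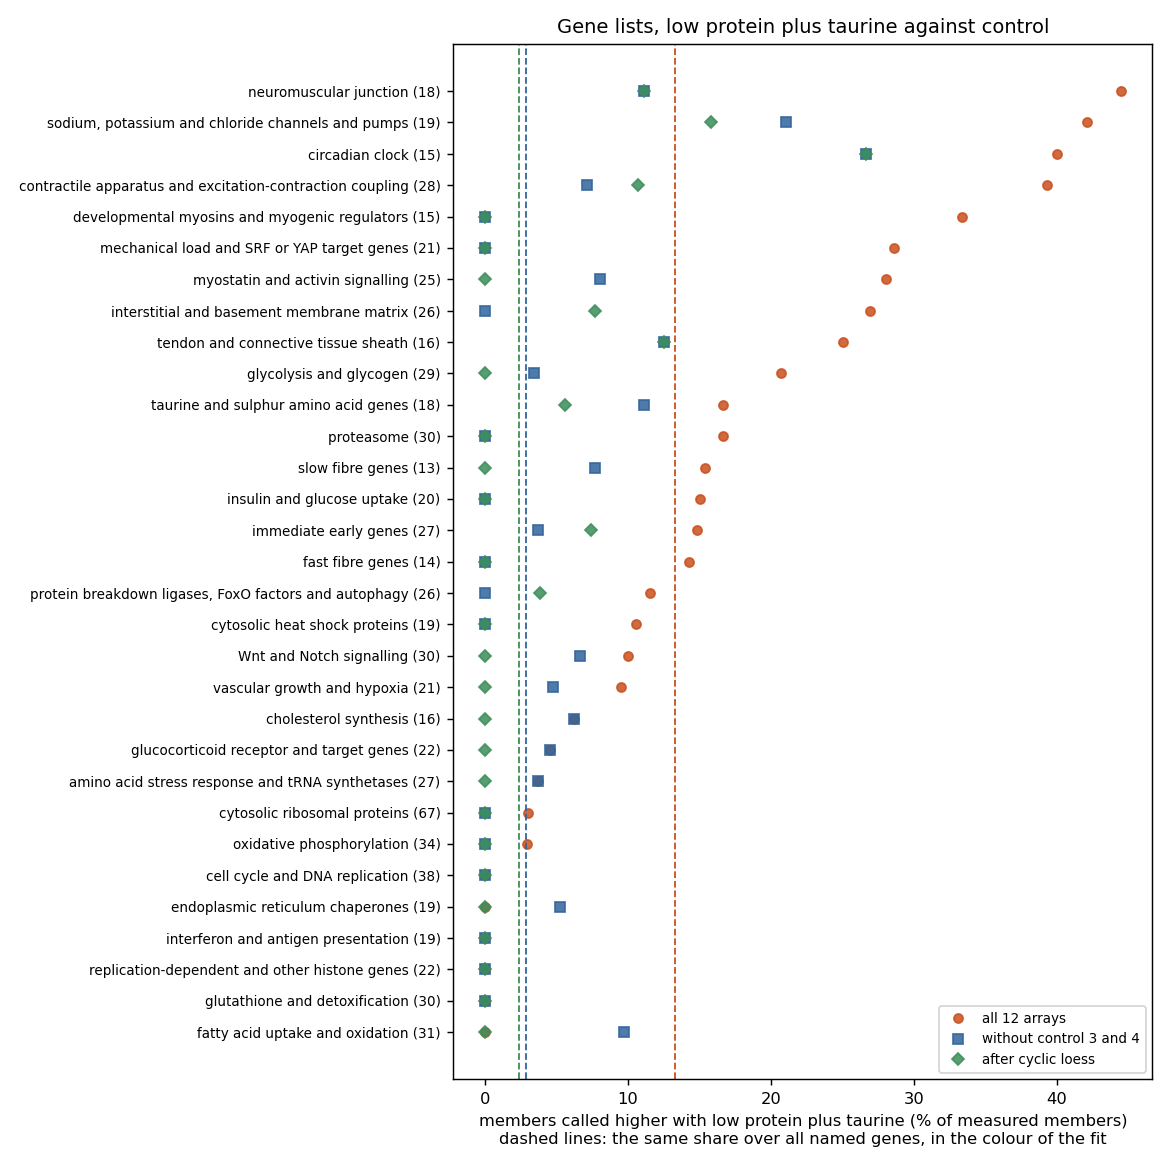
The share of measured members (x axis, percent) that limma called higher in the taurine group for 31 gene lists (y axis, measured members in brackets). Circles use all 12 arrays, squares leave out control 3 and control 4 and diamonds follow cyclic loess; the dashed lines give the same shares over all named genes, 13.3%, 2.84% and 2.35%. The neuromuscular junction, channel and clock lists lie right of the line of the same colour in all 3 fits, as do 4 more lists (contractile, tendon, immediate early, and taurine and sulphur amino acid genes), while the myogenic and load lists reach 0 in 2 of them. The low protein group, in which such lists rose against control as well, is not drawn.

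Tendon and sheath genes contained, beside Cilp and Kera, Tnmd and Fmod among the rises, 4 of 16 measured genes, with 0 falls, against 13.3% of named genes called higher; 2 rose in the reduced fit, against 2.84%. Tnmd, a membrane protein that marks tendon cells, was at 9.41, 8.99, 9.59 and 9.10 with taurine and at 8.74, 8.87, 8.85 and 8.71 in control, and rose by 0.48. The collagen-binding proteoglycan gene Fmod was at 9.35, 9.06, 9.30 and 8.68 against 8.30, 8.74, 8.57 and 8.32 and rose by 0.62. In the reduced fit, Tnmd was at 0.47 (limma adjusted p = 0.0794) and Fmod at 0.58 (0.107). In Fmod taurine 4 lay below control 2. In the matrix list 7 of 26 measured genes rose and 0 fell, against the same 13.3%, and 0 rose in the reduced fit. Sparc, a collagen-binding matrix protein gene, was at 12.86, 12.77, 12.81 and 12.79 against 12.65, 12.60, 12.59 and 12.52, and the proteoglycan gene Bgn at 11.87, 11.80, 11.87 and 11.86 against 11.64, 11.62, 11.65 and 11.51. Both passed after cyclic loess. In the reduced fit the limma adjusted p was 0.0850 for Sparc and 0.0578 for Bgn.

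Myostatin limits muscle growth through activin receptors and Smad proteins, and the TGF-beta ligands share these steps. Of 25 measured genes of this signalling list 7 rose and 0 fell, against 13.3% of named genes called higher, and 2 rose in the reduced fit, against 2.84%. After cyclic loess 0 rose, against 2.35%, and 1, the activin subunit gene Inhbb, was lower (-0.24, limma adjusted p = 0.0386). The receptor gene Tgfbr1 was at 9.07, 9.06, 8.99 and 8.98 with taurine and at 8.81, 8.72, 8.79 and 8.73 in control, and rose by 0.26 in both fits. It did not pass after cyclic loess (limma adjusted p = 0.138). The ligand gene Mstn was at 9.64, 9.78, 9.20 and 9.36 against 8.80, 9.27, 8.96 and 8.63 and rose by 0.58. Taurine 3 lay below control 2, and Mstn did not pass in the reduced fit (0.46, limma adjusted p = 0.118). The latent TGF-beta binding protein genes Ltbp1 and Ltbp3 rose by 0.29 and 0.27, the signal transducer gene Smad3 by 0.28, and the ligand genes Tgfb2 and Tgfb3 by 0.44 and 0.28. None of these 5 genes passed in the reduced fit (limma adjusted p = 0.0508 for Ltbp1, 0.0668 for Ltbp3, 0.101 for Smad3, 0.150 for Tgfb2 and 0.0645 for Tgfb3). In the Wnt and Notch list 3 of 30 rose, against 13.3% of named genes, of which the secreted Dkk3 at 0.36 and the Wnt co-receptor gene Lrp5 at 0.24 passed in both fits and not after cyclic loess (limma adjusted p = 0.0656 and 0.229).

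Taurine reaches the fibre through Slc6a6 and is made from cysteine by Cdo1 and Csad. None of these 3 genes passed. Slc6a6 was at 8.15, 8.24, 8.39 and 8.35 with taurine and at 8.18, 8.09, 8.23 and 8.37 in control, so that the groups overlapped. The fold change was 0.06, with a 95% interval from -0.10 to 0.23 (limma adjusted p = 0.564), and 0.15 in the reduced fit (0.308). Cdo1, the cysteine dioxygenase, was at 10.62, 10.93, 10.46 and 10.31 against 10.46, 10.59, 10.37 and 10.42, a fold change of 0.12, or 0.06 in the reduced fit. Csad, the decarboxylase of the next step, was at 8.0, 7.93, 7.89 and 7.84 against 7.78, 7.74, 7.89 and 8.23, a fold change of 0.00, or 0.15 in the reduced fit. Control 4 was the highest control for both Csad and Slc6a6.

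The related decarboxylase gene Gadl1, whose mouse enzyme makes beta-alanine and the muscle peptides built from it, was higher. It was at 6.39, 6.54, 6.65 and 6.84 with taurine and at 5.83, 5.99, 6.29 and 6.25 in control, and every taurine array lay above every control. It rose by 0.51 (SE 0.12, limma adjusted p = 0.0224), by 0.69 in the reduced fit (0.0143) and by 0.56 after cyclic loess (0.0242). In the list of 18 measured taurine and sulphur amino acid genes Gadl1, Mat2a at 0.19 and Mtrr at 0.17 rose and 0 fell, against 13.3% of named genes called higher, and the median was 0.00. Mat2a and Mtrr did not pass in the reduced fit (limma adjusted p = 0.0795 and 0.149). Gclc, the rate-limiting enzyme of glutathione synthesis, was at 7.99, 7.87, 8.0 and 7.98 against 7.61, 7.64, 8.02 and 8.62. It did not pass over all arrays and rose by 0.34 in the reduced fit (limma adjusted p = 0.0274), which leaves out the controls in which it was highest. The transporter gene Slc6a13 at -0.44 and the cystathionine synthase gene Cbs at -0.48 did not pass, and both were highest in control 4.

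Fuel metabolism gave smaller counts. Of 29 measured glycolysis and glycogen genes 6 rose and 0 fell, against 13.3% of named genes called higher, and 1, Phkb, passed in both fits. Phkb, a regulatory subunit of the kinase that activates glycogen breakdown, was at 8.78, 8.78, 8.98 and 8.97 with taurine and at 8.46, 8.59, 8.55 and 8.41 in control, and rose by 0.38, but did not pass after cyclic loess (limma adjusted p = 0.0510). Gys1, the glycogen synthase of muscle, rose by 0.41, and was at 0.27 in the reduced fit (limma adjusted p = 0.171). Of 20 insulin and glucose uptake genes 3 rose, near the same 13.3%, and 0 passed in the reduced fit. Slc2a4 encodes the insulin-dependent glucose transporter GLUT4 and was at 9.42, 9.46, 8.82 and 8.72 with taurine and at 8.69, 8.75, 8.46 and 8.27 in control. Taurine 4 lay below control 2. Slc2a4 rose by 0.56, and was at 0.38 in the reduced fit (limma adjusted p = 0.230) and at 0.23 without taurine 1 and taurine 2 (0.268), while Akt2 rose by 0.21 and Gsk3b by 0.26. The growth factor genes Igf1 and Igf2, both at 0.02, did not pass.

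The oxidation of fatty acids turned with the control arrays. Of 31 measured genes 0 passed by limma over all arrays (median -0.02). An unadjusted p under 0.05 was found for 3, against at least 13.8% of all probe sets. The reduced fit called 3 higher, against 2.84% of named genes, with a list median of 0.20. Over all named genes the median of that fit was 0.086. After cyclic loess 0 passed. Hadh, an enzyme of the mitochondrial cycle, was at 9.80, 9.77, 10.02 and 9.99 with taurine and at 9.45, 9.60, 10.25 and 11.03 in control. It rose by 0.37 in the reduced fit (limma adjusted p = 0.0346) and was at -0.19 over all arrays. Etfb and Acadm, which pass on and remove electrons in that cycle, rose by 0.30 and 0.35 in the reduced fit. The hepatocyte markers were high in the same controls in which Hadh was highest; their part in the result was not tested. Of 34 oxidative phosphorylation genes 1 rose over all arrays, Ndufs7, and of 67 cytosolic ribosomal protein genes 2 did, Rpl11 and Rpl35, both below the 13.3% of named genes, and 0 of either list rose in the reduced fit. In the proteasome list 5 of 30 rose over all arrays, near that share, and 0 did in the reduced fit. In the cholesterol list 1 of 16 rose, below that share, the squalene synthase gene Fdft1, at 0.32 over all arrays and 0.43 in the reduced fit, and it did not pass after cyclic loess (limma adjusted p = 0.239).

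**Figure D3:**
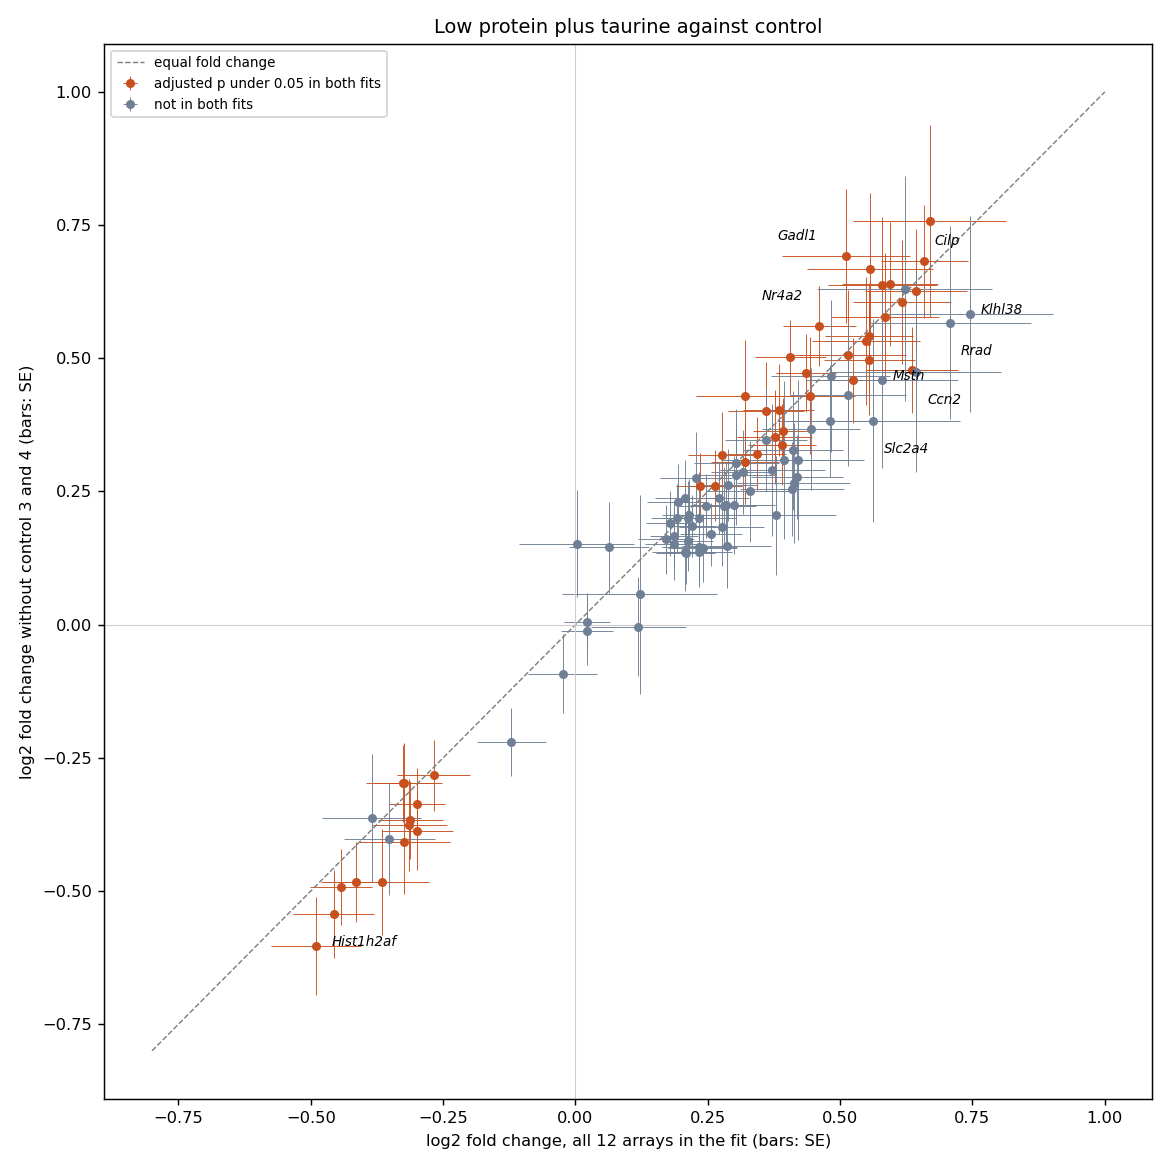
Log2 fold change of taurine against control for 103 named genes with all 12 arrays in the fit (x axis) and in the reduced fit (y axis), with SE bars. Orange points passed a limma adjusted p of 0.05 in both fits, and the dashed line marks equal values; Alb and Mgst1 lie outside the axes. Rrad, Klhl38, Ccn2, Slc2a4 and Mstn lie below the line and did not pass in both, while Hist1h2af, Nr4a2 and Gadl1 moved farther from 0.

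Early response genes divided the taurine arrays. Immediate early genes are switched on within minutes of a stimulus or of handling. Of 27 measured genes 4 rose and 0 fell over all arrays, near the 13.3% of named genes called higher, and the list median was 0.32. In the reduced fit 1 rose, near the 2.84% of named genes, and the list median was 0.14. Relative to control 1 and control 2 the array medians were 0.26 and 0.43 in taurine 1 and taurine 2 and -0.07 in both taurine 3 and taurine 4. Control 3 and control 4 were lower still, at -0.252 and -0.335. Rrad, a small GTPase that restrains calcium channels, was at 8.94, 8.99, 8.33 and 8.42 with taurine and at 8.13, 8.07, 7.90 and 7.74 in control. The matricellular growth factor gene Ccn2, of the list of mechanical load, was at 8.87, 9.17, 8.37 and 8.36 against 8.19, 8.24, 7.86 and 7.90. Klhl38, a muscle gene of the ubiquitin ligase adaptor family, was at 9.92, 10.19, 9.35 and 9.60 against 9.12, 9.25, 8.95 and 8.77. In all 3 genes taurine 1 and taurine 2 were the highest arrays. They rose by 0.71, 0.64 and 0.74 over all arrays. Without taurine 1 and taurine 2 they were at 0.42 (limma adjusted p = 0.0794), 0.32 (0.0990) and 0.45 (0.0692). None of the 3 passed in the reduced fit (limma adjusted p = 0.0895, 0.146 and 0.0860).

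Nr4a2, an orphan nuclear receptor of the same early list, was at 7.46, 7.32, 7.33 and 7.48 with taurine and at 6.86, 6.81, 7.03 and 7.04 in control. It rose by 0.46 (SE 0.07, limma adjusted p = 0.00781), by 0.56 in the reduced fit and by 0.47 without taurine 1 and taurine 2 (0.0294). In the list of mechanical load and SRF or YAP targets 6 of 21 rose over all arrays, against 13.3% of named genes, and 0 did in the reduced fit.

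Other lists separated taurine 1 and taurine 2 from taurine 3 and taurine 4 as well. The glucocorticoid receptor and target genes had array medians of 0.34, 0.57, 0.01 and 0.13 in taurine 1 to 4, the contractile list 0.23, 0.25, 0.01 and 0.05, and glycolysis 0.24, 0.20, -0.01 and -0.01. The fast fibre list was at 0.29, 0.23, -0.03 and 0.00. The circadian clock list was higher in taurine 1 and taurine 2 too, at 0.345, 0.397, 0.129 and 0.108. The list of protein breakdown ligases, FoxO factors and autophagy was at 0.20, 0.26, -0.07 and -0.04. Of 22 glucocorticoid list genes 1 rose, the kinase gene Sgk1, which was at 9.10, 9.57, 8.90 and 8.98 against 8.83, 8.84, 8.63 and 8.69. It rose by 0.39 and was at 0.31 in the reduced fit (limma adjusted p = 0.221). Keratinocyte markers stood apart in taurine 3, with a mean of 8.66 against 6.23 to 7.05 in the other taurine arrays, and they were at 7.90 and 7.80 in control 3 and control 4. Among the taurine and control arrays taurine 3 was also the highest for 8 of the 14 largest rises, Cilp, Kera, Frem2, Zfp185, Cpm, Dok5, Khdrbs3 and Plcd4. The part of the keratinocyte markers in those results was not tested.

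**Figure D4:**
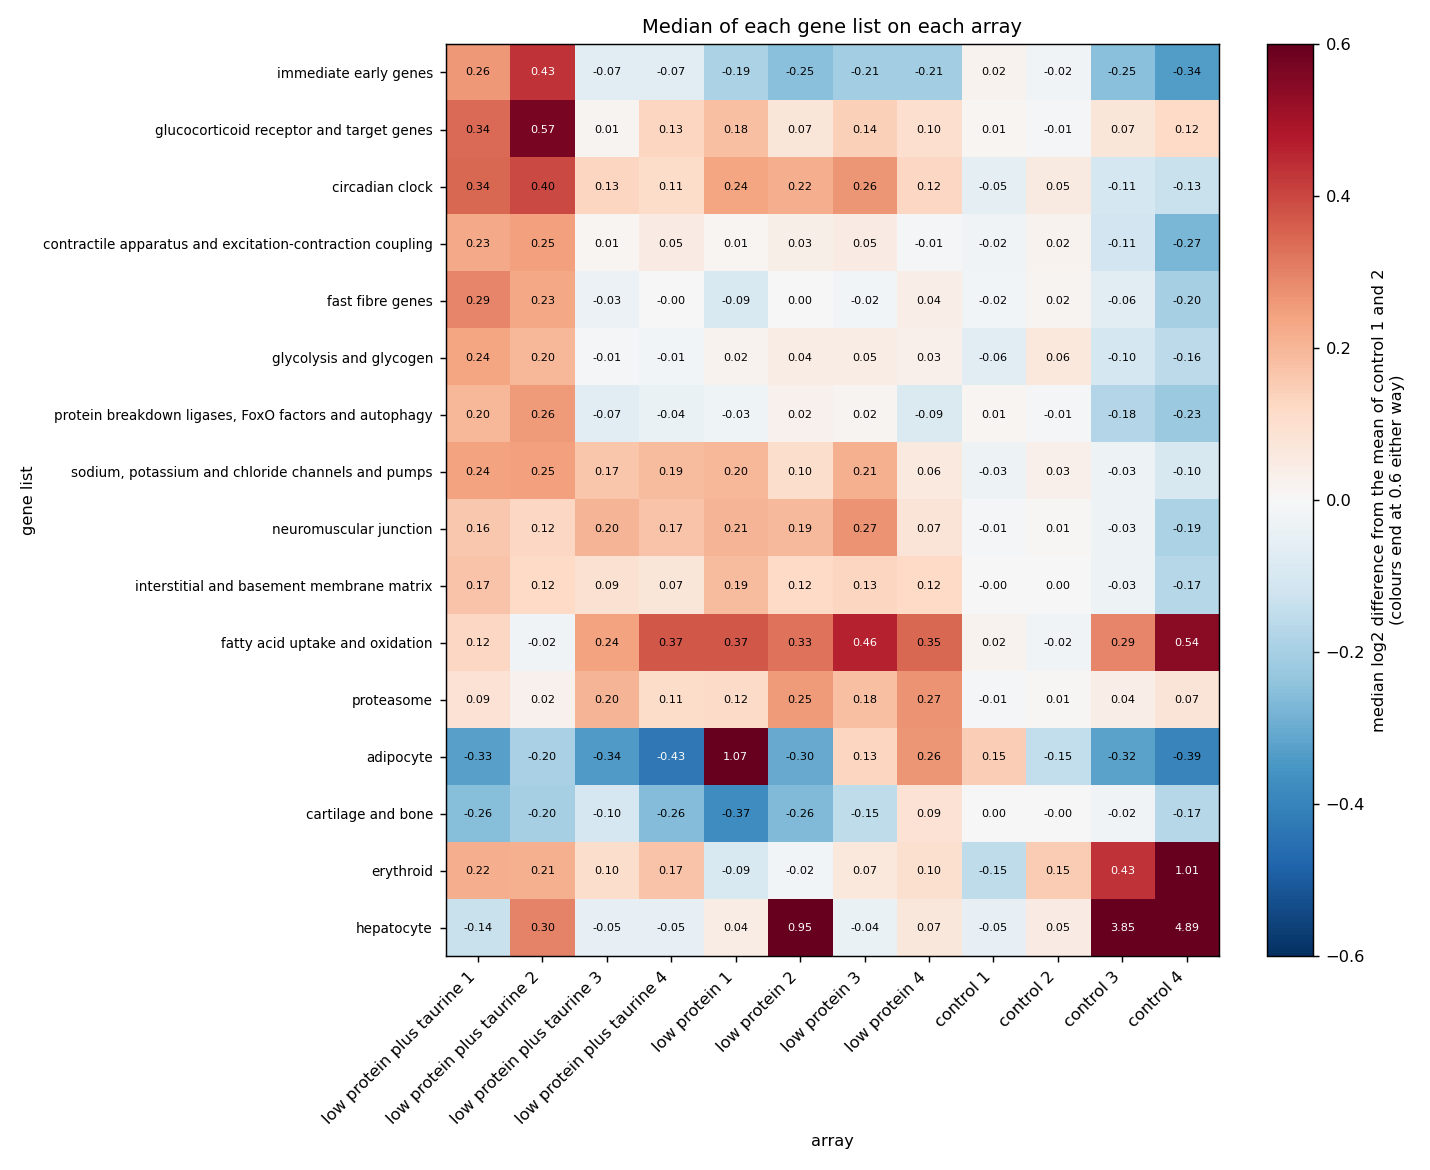
Median log2 difference of 16 gene lists (rows) on each of the 12 arrays (columns) from the mean of control 1 and control 2, with the value printed in each cell. Red is higher and blue lower, and the colours end at 0.6 either way. Taurine 1 and taurine 2 are red in the early, glucocorticoid, contractile, fast fibre, glycolysis and protein breakdown rows where taurine 3 and taurine 4 are pale. The clock row is also redder in taurine 1 and taurine 2, whereas the junction and channel rows are alike in all 4. The hepatocyte row reaches 3.85 and 4.89 in control 3 and control 4.

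Of 16 endothelial markers 3 rose and 0 fell (Flt1, Esam and Erg) and of 11 smooth muscle and pericyte markers 3 rose (Notch3, Rgs5 and Tagln), against 13.3% of named genes, and none of these 6 passed in the reduced fit. Cartilage and bone markers held 2 falls of 16, against 1.72% of named genes called lower, Matn1 at -0.39 and Col9a2 at -0.35. Matn1, a cartilage matrix protein gene, was at 6.14, 6.20, 6.30 and 6.16 with taurine and at 6.67, 6.46, 6.68 and 6.54 in control. Matn1 had a limma adjusted p of 0.0967 and Col9a2 of 0.0518 in the reduced fit. The adipocyte list had 0 of 13 calls by limma, 1 at an unadjusted p under 0.05, and a median of -0.25, or -0.44 in the reduced fit. At least 13.8% of all probe sets had such an unadjusted p, which also bears on the hepatocyte count below. Adipoq, the hormone gene of fat cells, was at 8.17, 8.67, 7.52 and 6.15 against 9.43, 8.85, 7.80 and 7.73, with taurine 4 the lowest array (-0.82, limma adjusted p = 0.318). Cidea, a lipid droplet protein gene of brown fat, was at 10.01, 9.90, 10.04 and 10.56 against 9.56, 9.69, 9.72 and 9.70, in the opposite direction from Adipoq, and did not pass (0.46, 0.106). The hepatocyte list had 0 of 14 calls by limma and 10 at an unadjusted p under 0.05, with a median of -2.07 over all arrays and 0.06 in the reduced fit, and albumin (Alb) was at -1.91 (limma adjusted p = 0.295). The detoxification gene Mgst1 fell by 2.09 over all arrays. It was at 8.14, 8.58, 7.81 and 6.96 against 9.38, 8.67, 10.30 and 11.50, highest in the controls with liver transcripts, and did not pass without them (-1.15, limma adjusted p = 0.149).

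The group that received the low protein diet without taurine allows a direct test of whether the genes differ between the low protein groups. In that test 0 of 18957 probe sets (0.00%) passed by limma, while 2047 (10.8%) had an unadjusted p under 0.05. In the reduced fit 2 passed, both higher with taurine. The hepatocyte list median, relative to control 1 and control 2, was 0.95 in low protein 2, and its part in this test was not tested. Among the 28 genes 7 had an unadjusted p under 0.05, and their smallest adjusted p was 0.386. The differences, taurine minus low protein, lay between -0.22 and 0.25. For Cilp the low protein arrays were at 8.20, 8.19, 8.17 and 8.18, within the range of the taurine arrays, and the difference was 0.09 with a 95% interval from -0.09 to 0.27. That interval lies nearer to 0 than the fold change of 0.66 against control. For Hist3h2ba the difference was 0.04 with an interval from -0.09 to 0.16. Mid2 was at 8.0, 7.96, 7.87 and 7.90 with low protein, below all 4 taurine arrays, with a difference of 0.25 from 0.06 to 0.44. Idi2 was at 6.29, 5.99, 6.15 and 6.20, above all 4 taurine arrays, with a difference of -0.21 from -0.38 to -0.05. Neither gene passed (limma adjusted p = 0.398 for Mid2 and 0.402 for Idi2).

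Both diet comparisons share the 4 control arrays, so their fold changes are set side by side without a measure of likeness. Against control, Cilp was at 0.66 with taurine and at 0.57 with low protein alone, Lrrn1 at 0.58 and 0.77, Popdc3 at 0.52 and 0.44, Hist3h2ba at -0.44 and -0.48, and Nr1d2 at 0.44 and 0.39. Slc6a6 was at 0.06 with taurine and at 0.44 with low protein, and its difference was -0.38 with an interval from -0.54 to -0.21 (limma adjusted p = 0.347). Ccn2 was at 0.64 with taurine and at -0.08 with low protein, and its difference was 0.73 with an interval from 0.38 to 1.07 (limma adjusted p = 0.347). List rises were not confined to the taurine group. Low protein alone had 10 of 15 clock, 9 of 18 junction, 7 of 19 channel and 8 of 28 contractile genes called higher. It had 14 of 26 matrix, 14 of 25 myostatin, 18 of 30 Wnt and Notch and 1 of 27 immediate early genes. The taurine counts were 6, 8, 8, 11, 7, 7, 3 and 4 in the same order. The share of named genes called higher with low protein alone was not counted.

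**Figure D5:**
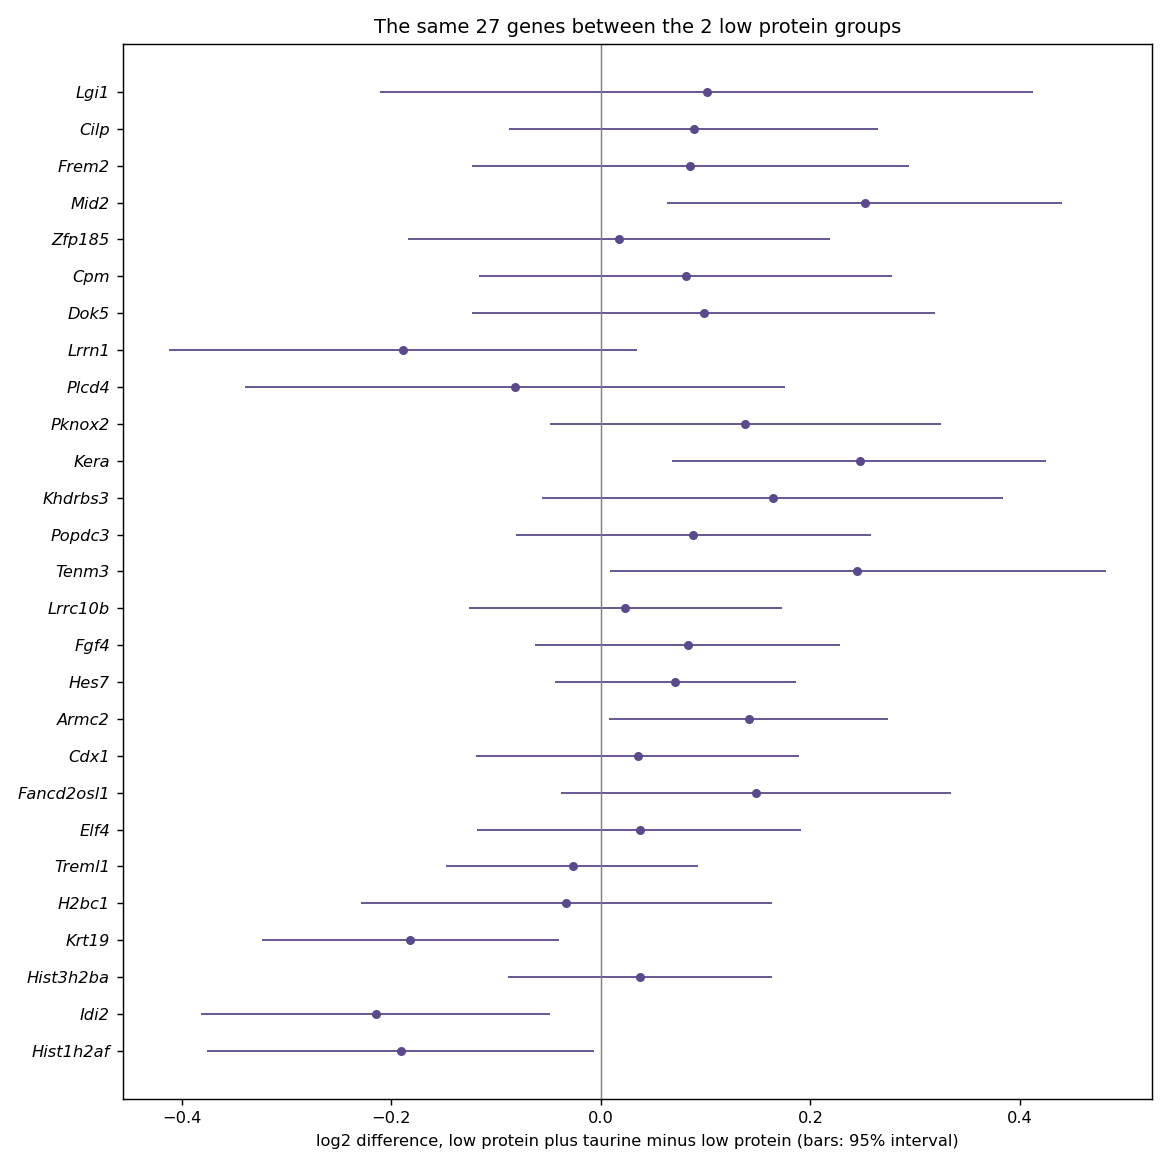
Log2 difference between the taurine and the low protein group (x axis, points, with 95% intervals as bars) for 27 of the 28 genes (rows). The differences run from -0.22 to 0.25, and the intervals of 7 genes leave out 0, of which none passed after adjustment over all probe sets.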

How the data were processed

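Each pool of leg muscle RNA was measured on 1 Affymetrix array. The authors processed the arrays with RMA in R 3.2.2, per the submitters' processing notes, and deposited log2 values per probe set; the genome build is not given in the sources used here. Their table of detected probe sets holds 18957 of 29214. The authors' deposited table of 895 genes also holds p-values, linear intensity means and ratios, per the file headers, of which only the gene names were used.

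For each probe set a linear model with 3 group means was fitted to the deposited log2 values of the 12 arrays with limma 3.58.1 under R 4.3.3 (lmFit, eBayes). P-values were adjusted by Benjamini-Hochberg over the whole table. Tests were two-sided at an adjusted p of 0.05, and the script was tested on simulated data. The same fit was repeated without control 3 and control 4, after cyclic loess (3 iterations) and under the other alternatives given in the closing section. Replicate numbers stand for different dams, and same-numbered arrays deviated together (correlation over 0.1) in 3 of 12 pairs, so arrays were not paired.

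Platform annotation gave 1 symbol for 11721 probe sets and several for 141. Of 7095 not listed, 328 were named through the authors' deposited table, and 11702 symbols were updated through the RefSeq gene table. The shares over named genes count genes named through the authors' table too. A gene with several probe sets is represented by that with the highest mean. Of the 10 microRNA probe sets 8 matched RefSeq. Named genes passed the threshold in both fits with the same sign and no overlap of the 4 taurine and 4 control arrays, without predicted genes, chemosensory receptors and microRNAs: the 14 largest rises and falls. Up to 3 passing members of each gene list with the smallest p and some genes of growth, muscle identity and taurine handling were added. Other list members, Cbx3 and the microRNAs were named after their values were seen. The comparison, lists, markers and rule were chosen with earlier results of these data known. Lists are described by counts and medians beside all genes. Some genes are not reported here.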

Additional observations from a re-analysis of the deposited data

Results flagged for a closer look

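The 28 genes gave 56 sets of 4 arrays. In 5 of them 1 array stood apart from the other 3 by a gap, relative to the whole range, beyond Dixon's 95% critical value. Chance alone gives about 1 in 20 such sets where genes are not chosen by the same values, as these were. Zfp185 was at 8.03 in taurine 3 and between 7.58 and 7.66 in the other taurine arrays. Kera was at 9.49 in taurine 3 and between 9.26 and 9.28 in the others. Popdc3 was at 9.77 in taurine 1 against 9.57 to 9.60. Plcd4 had such an array in both groups, at 7.10 in taurine 1 against 7.45 to 7.50 and at 6.46 in control 1 against 6.91 to 6.98. The groups did not overlap in any of these genes, which is how the genes were chosen.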

How the results depend on the processing

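Against control 2616 probe sets were called, and the number was 907 without control 3 and control 4, 1013 without taurine 1 and taurine 2, 4276 with array weights, 1542 with 1 gene symbol, 1201 after quantile normalization, 1137 after cyclic loess, 1126 with the hepatocyte marker mean as a covariate, 491 by a plain t-test, 1353 with only the groups compared, 164 at an adjusted p of 0.01 and 5183 at 0.1. Higher calls numbered 393, 847, 3009, 1419, 554, 333, 511, 370, 939, 102 and 3717 under these settings in the same order, and 599 after centring each array on its median. Lower calls were 166 without taurine 1 and taurine 2, 1267 with array weights, 323 above the median level, 123 with 1 gene symbol, 1082 in the table of all probe sets, 1223 after median centring, 121 by the t-test, 414 with only the groups compared, 62 at 0.01 and 1466 at 0.1. Higher calls made up 55.5% in the table of all probe sets, 45.4% with the covariate, 86.9% above the median level, 92.0% with 1 gene symbol and 62.2% at 0.01. The cause of these shifts was not tested; fewer probe sets or arrays enter some settings by construction.

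Leaving out 1 array at a time gave 620 to 2742 calls, 455 to 2118 higher and 165 to 851 lower. The number was 620 without taurine 1, 1098 without taurine 4, 1717 without taurine 3, 748 without control 3 and 1580 without control 1. The replicate block gave 1974 calls, 1475 higher and 499 lower, and changed no call among the 28 genes. All 28 kept their direction in all settings run. Where arrays were left out, the choice of genes without overlap fixed this in advance. Of the 28, 27 passed after cyclic loess, 26 with the covariate, 21 without taurine 1 and taurine 2, 20 without taurine 1, 25 with only the groups compared, 13 by the t-test and 15 at 0.01. Against low protein the number of calls was 0, but 2 without control 3 and control 4 and 1 with only the groups compared, all higher; leaving out 1 array gave 0 to 0. Fold changes of dim probe sets are compressed by the background signal, which these values do not allow to be measured.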
